A study of Mus musculus with 4 samples.

Results

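Ebf1, Ebf2 and Ebf3, genes of the early B cell factor family of transcription factors, and Zfp423 and Zfp521, which encode zinc finger proteins that bind Ebf proteins, were followed across 4 regions of the embryonic mouse brain. The genes were chosen by name, and each was read from the probe set whose annotation gave its symbol alone. All 5 were found, among 19938 named genes, and each had 1 probe set. The tissue came from embryos of the outbred ICR stock at embryonic day 17.5, and the labels name no treatment or allele. Cerebellum was pooled from 13 mice, olfactory bulb (hereafter bulb) from 14, pontine nucleus (a hindbrain nucleus that sends mossy fibres to the cerebellum) from 15 and superior colliculus (hereafter colliculus, the visual part of the midbrain roof) from 16, and each pool was hybridised to 1 Affymetrix array. Values are log2 signals as the authors deposited them. With 1 array per region there was no replicate, no test and no SD, so no order of levels can be set against a spread between samples. Pooling and dissection of single preparations cannot be told apart from region. In dissected tissue, fewer cells of a type and less RNA per cell cannot be told apart either.

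Ebf proteins bind DNA as dimers through a zinc-binding domain and dimerise through a helix-loop-helix domain. They were first described in olfactory neurons and B cells, and in the mouse brain Ebf genes act in newly born neurons, where loss of Ebf2 disturbs the migration and survival of Purkinje cells, the output neurons of the cerebellar cortex. Zfp423, also called Roaz or Ebfaz, can block Ebf proteins and can also pair with Smads, the nuclear effectors of bone morphogenetic protein (BMP) signalling, and mice without it have a malformed cerebellum. Zfp521, or Evi3, is its close relative and recruits the NuRD corepressor complex, which removes acetyl groups from histones.

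The arrays told the 5 genes apart. Ebf2 rose in the cerebellum, Ebf1 fell in the bulb and Zfp521 rose in the pontine nucleus, where these words mean that the region lay beyond all 3 other arrays by 1 log2 unit (2-fold) or more. Ebf3 was bright in both the cerebellum and the colliculus. Zfp423 differed by less than 1 log2 unit between any 2 regions. The rule was applied to the 10908 genes whose highest level exceeded 8.56, the median of all gene levels, and all 5 genes lay above it. As background, 0.605% of those genes were higher in the cerebellum, 0.431% lower in the bulb and 0.798% higher in the pontine nucleus, so 1 of the 5 genes stood beside each share. None of the 5 was lower in the cerebellum (0.156% of compared genes), the pontine nucleus (0.981%) or the colliculus (0.165%), and none was higher in the bulb (0.972%) or the colliculus (0.715%). Levels of different genes come from different probes and are compared here only across regions.

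**Figure D1:**
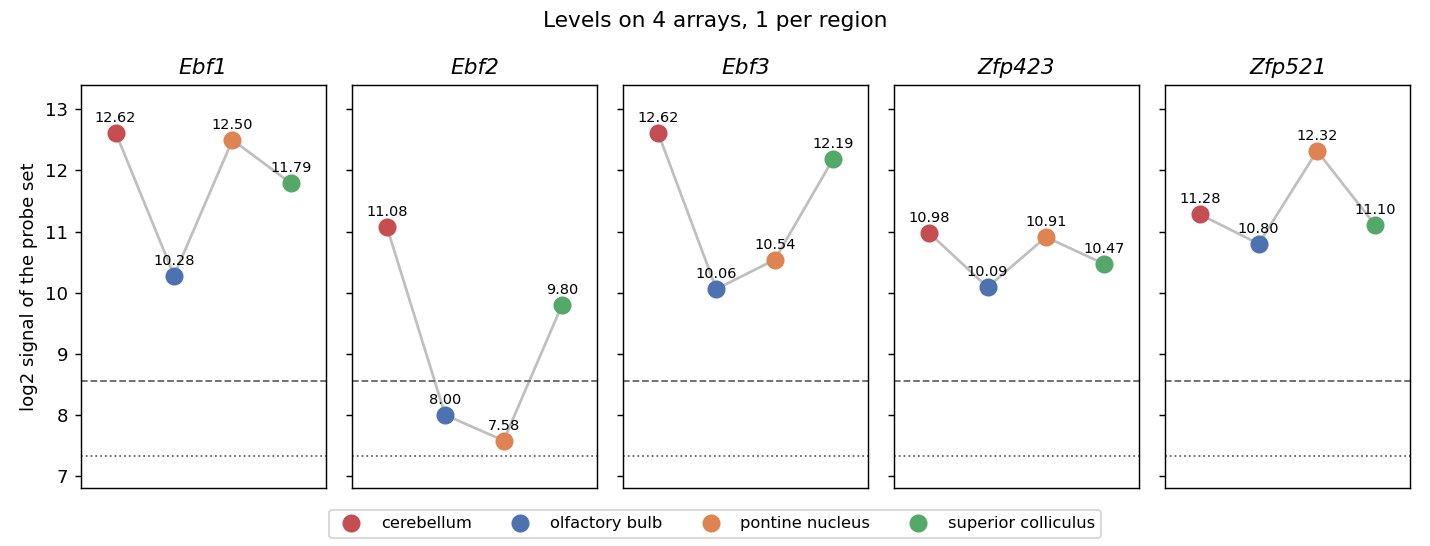
Log2 signal (vertical axis) of each gene on the 4 arrays, 1 point per region. The dashed line is the level floor of 8.56. Under the dotted line at 7.33 lie 95% of the readings of the background genes. Within each panel, the cerebellum point is the highest for 4 genes and the bulb point the lowest for 4. For Ebf1 and Zfp423 the cerebellum point is above the pontine one by only 0.12 and 0.07. Only the Ebf2 points for the bulb, at 8.0, and the pontine nucleus, at 7.58, come below the floor.

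The cerebellum gave the highest level for 4 of the 5 genes and the bulb the lowest for 4 of the 5. For Ebf1 and Zfp423 the cerebellum led the pontine nucleus by only 0.12 and 0.07. By order alone, 17.9% of all compared genes were highest in the cerebellum and 17.7% lowest in the bulb. Zfp521 was highest, and Ebf2 lowest, in the pontine nucleus, where 28.4% and 26% of compared genes lay. No gene of the 5 was highest in the bulb (27.2%) or the colliculus (24%), or lowest in the cerebellum (30.9%) or the colliculus (22.4%). The range over the 4 arrays reached 1 log2 unit for 4 of the 5 genes, against 15% of all compared genes. Ebf2 had the widest range, 3.5 log2 units, a width that 0.513% of compared genes reached. Ebf3 spanned 2.56 and Ebf1 2.34, widths reached by 1.75% and 2.27%. Zfp521 spanned 1.52, reached by 7.21%, and Zfp423 0.89, reached by 17.7%.

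RefSeq promoters were at hand for Ebf1, Ebf3 and Zfp423. These are shown because Ebf1 and Zfp423 put the 4 regions in the same order while Ebf3 did not. Each run below is the 250 bases before the first listed start site of the gene, read 5′ to 3′ on the gene's strand (build GRCm38.p6). Capitals mark CCCNNGGG, the core of the palindromic Ebf recognition site. Ebf1 is chr11:44617850-44618099 on the plus strand, Ebf3 is chr7:137314446-137314695 on the minus strand, and Zfp423 is chr8:87959596-87959845 on the minus strand.
Ebf1: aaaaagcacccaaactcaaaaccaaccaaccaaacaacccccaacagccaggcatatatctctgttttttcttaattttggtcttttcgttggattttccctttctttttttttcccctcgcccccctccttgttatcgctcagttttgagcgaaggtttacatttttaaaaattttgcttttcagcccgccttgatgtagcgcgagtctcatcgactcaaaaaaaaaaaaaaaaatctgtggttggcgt
Ebf3: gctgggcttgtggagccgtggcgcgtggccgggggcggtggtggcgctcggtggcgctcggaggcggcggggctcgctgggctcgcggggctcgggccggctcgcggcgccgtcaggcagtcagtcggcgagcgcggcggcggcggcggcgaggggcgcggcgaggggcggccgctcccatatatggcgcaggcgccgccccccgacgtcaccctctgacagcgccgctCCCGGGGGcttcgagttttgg
Zfp423: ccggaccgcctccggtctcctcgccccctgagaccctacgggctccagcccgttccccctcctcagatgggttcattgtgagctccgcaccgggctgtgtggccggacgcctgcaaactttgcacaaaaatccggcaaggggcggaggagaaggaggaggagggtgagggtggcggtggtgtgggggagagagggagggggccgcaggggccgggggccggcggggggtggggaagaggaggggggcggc

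The 3 windows differed in composition. Ebf1 had 40% G and C with 9 CpG pairs, Ebf3 had 80% with 43 and Zfp423 had 71.6% with 18, where the median promoter of the table had 52.4% and 6. Both strands were searched for 4 motifs. The core CCCNNGGG was found once before the Ebf3 start, with its first base 21 bases upstream (position -21), and in neither of the other 2 windows shown. A second listed start of Zfp423 had 1 match at position -28, and a second start of Ebf1 had none. Among all 32851 promoter windows of this length, 11.8% held the core. The longer form TCCCNNGGGA, which contains the core, was in none of these windows and in 0.779% of all. The E-box CANNTG, which proneural factors bind, occurred once in the Zfp423 window shown and in neither other, against 66.2% of all windows, and TATAAA occurred in none of them, against 12.4%. Before the second listed starts there was 1 E-box for Ebf1 and there were 3 for Zfp423, with no TATAAA. Matches are descriptions of letters in a window, and no binding was measured.

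Ebf1 (probe set 10375360) was low in the bulb. It read 10.28 there, against 12.62 in the cerebellum, 12.50 in the pontine nucleus and 11.79 in the colliculus. The bulb thus lay 1.51 log2 units, or 2.85-fold, below the next lowest region, and Ebf1 was the 1 member called lower there. The cerebellum and the pontine nucleus were 0.12 apart, and the colliculus lay 0.71 below the pontine nucleus, so none of the other 3 regions was set apart from its neighbours by the rule.

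Ebf2 (probe set 10416126) was the gene with the sharpest regional contrast. It read 11.08 in the cerebellum, against 9.80 in the colliculus, 8.0 in the bulb and 7.58 in the pontine nucleus. The cerebellum stood 1.28 log2 units, or 2.43-fold, above the colliculus, and the colliculus stood 1.80 above the bulb. The bulb and the pontine nucleus differed by 0.42. Both low readings were close to the range of 202 genes taken as background (vomeronasal receptors and beta defensins, median 5.20, 95th percentile 7.33), the pontine one being 0.25 above that percentile. The cerebellum and the pontine nucleus differed 11.3-fold, with the pontine reading this close to background.

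Ebf3 (probe set 10568735) split the regions into 2 bright and 2 dim ones. It read 12.62 in the cerebellum and 12.19 in the colliculus, against 10.54 in the pontine nucleus and 10.06 in the bulb. The dimmer of the bright pair stood 1.65 log2 units above the brighter of the dim pair. Because the bright pair was only 0.43 apart, Ebf3 was not called for a single region. For Ebf2 the same gap between the pairs was 1.80. For Ebf1, Zfp423 and Zfp521 it was -0.71, -0.44 and -1.22, since their pontine level exceeded that of the colliculus.

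Zfp423 (probe set 10580473) varied least. It read 10.98 in the cerebellum, 10.91 in the pontine nucleus, 10.47 in the colliculus and 10.09 in the bulb. The widest difference, between the cerebellum and the bulb, was 0.89 log2 units or 1.85-fold. Its 4 regions had the same order as those of Ebf1, with smaller steps.

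Zfp521 (probe set 10457587) was highest in the pontine nucleus. It read 12.32 there, against 11.28 in the cerebellum, 11.10 in the colliculus and 10.80 in the bulb. The gap to the cerebellum was 1.04 log2 units, or 2.06-fold. Of the 3 calls it was the nearest to the threshold, and after quantile normalization of the arrays it was 0.975, just under it. The other 3 regions lay within 0.48 of each other.

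**Figure D2:**
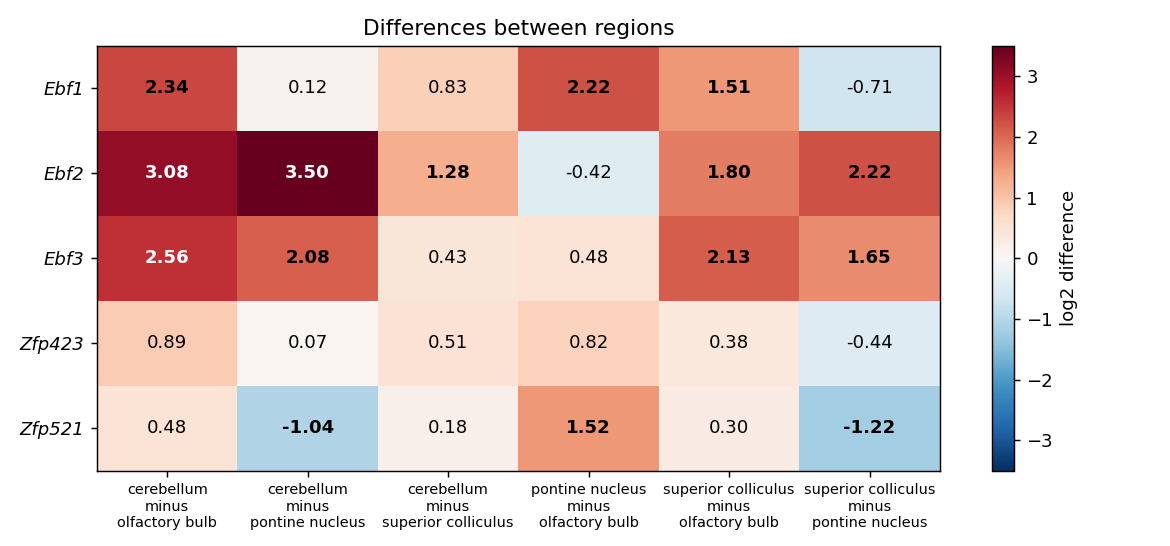
Log2 difference between 2 regions (columns, the first named minus the second) for each gene (rows), on a colour scale from blue for negative to red for positive, with differences of at least 1 log2 unit in bold. Ebf2 has 5 bold cells, Ebf3 has 4, Ebf1 and Zfp521 have 3 each and Zfp423 has none.

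Between pairs of regions, 15 of the 30 differences of the 5 genes reached 1 log2 unit. Cerebellum over bulb held for 3 genes (Ebf1, Ebf2 and Ebf3, by 2.34, 3.08 and 2.56), where 2.06% of compared genes lay that way. Superior colliculus over bulb held for the same 3 genes, by 1.51, 1.80 and 2.13 (2.73% of compared genes). Pontine nucleus over bulb held for Ebf1 by 2.22 and for Zfp521 by 1.52 (2.57%). No gene of the 5 was higher in the bulb than in the cerebellum (2.46%), the colliculus (2.94%) or the pontine nucleus (5.2%) by the rule.

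The pontine nucleus separated the family. Cerebellum over pontine nucleus held for Ebf2 by 3.5 and Ebf3 by 2.08 (4.49% of compared genes), while Ebf1 differed by 0.12. Superior colliculus over pontine nucleus held for the same 2, by 2.22 and 1.65 (4.12%). Zfp521 went the other way, with the pontine nucleus above the cerebellum by 1.04 (1.88%) and above the colliculus by 1.22 (1.72%). Cerebellum over colliculus held for Ebf2 alone among the 5, by 1.28 (3.08%), and none was higher in the colliculus than in the cerebellum (2.63%). These pairs share arrays, so they are not independent of each other.

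Set against the mean of the other 3 arrays, Ebf2 differed by 2.62 in the cerebellum, Ebf3 by 1.69, Ebf1 by 1.10, Zfp423 by 0.49 and Zfp521 by -0.13. In the bulb Ebf1 differed by -2.02, Ebf3 by -1.72, Ebf2 by -1.49, Zfp521 by -0.77 and Zfp423 by -0.70. In the pontine nucleus the signs were mixed, with 1.26 for Zfp521, 0.94 for Ebf1 and 0.40 for Zfp423 against -1.08 for Ebf3 and -2.05 for Ebf2. The colliculus gave 1.12 for Ebf3 and 0.91 for Ebf2, and between -0.37 and -0.01 for the other 3 genes.

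The fourth gene of the family, Ebf4, was not among the 5. It read 10.04 in the colliculus, 9.56 in the pontine nucleus, 9.25 in the bulb and 9.21 in the cerebellum. Its lowest reading was in the cerebellum, where the other 3 Ebf genes had their highest, but its range was only 0.83 log2 units and it was called in no region.

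Profiles centred on each gene's own mean were compared by their root mean square difference over the 4 arrays, as a description. Among the members, Zfp423 and Zfp521 were the closest (0.40 log2 units), followed by Ebf2 with Ebf3 (0.52) and Ebf1 with Zfp423 (0.59). Ebf2 and Zfp521 were the farthest apart (1.70). By Pearson's r over the same 4 arrays, which ignores the size of the steps, Ebf1 with Zfp423 gave 0.97, Ebf2 with Ebf3 0.95, Zfp423 with Zfp521 0.71 and Ebf2 with Zfp521 -0.37. Zfp423 and Zfp521, first by the root mean square, came after both of those pairs by r, and they have the smallest ranges of the 5 genes. All profiles share the same 4 arrays.

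**Figure D3:**
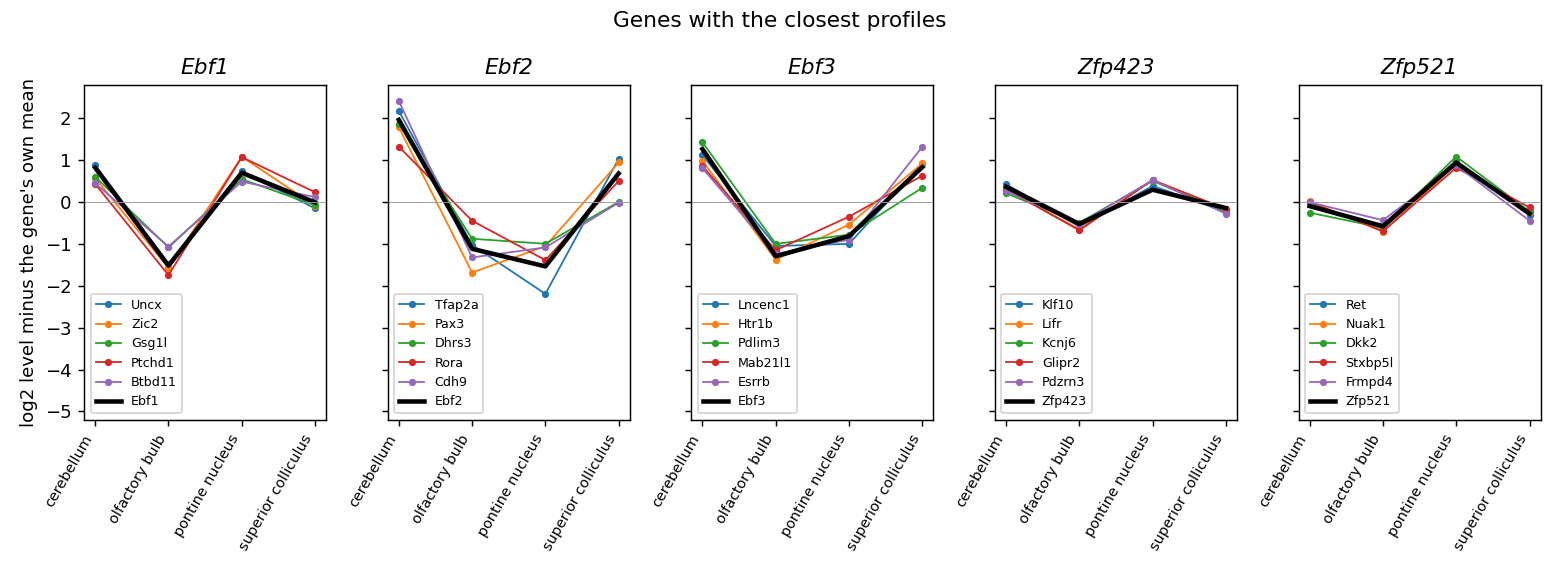
Log2 level minus the gene's own mean over the 4 arrays (vertical axis) by region, for each of the 5 genes (thick black) and the 5 genes closest to it by root mean square difference (thin lines). Only genes with a range of at least 1 log2 unit were candidates. The companions of Zfp521 peak in the pontine nucleus, and those of Ebf1 are lowest in the bulb.

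The 5 closest genes to each member were taken from 1573 named genes with a range of at least 1 log2 unit. For Ebf1 they were Uncx, a homeobox gene, at 0.083 log2 units, then Zic2, a zinc finger transcription factor gene of the dorsal neural tube, at 0.23, and Gsg1l, Ptchd1 and Btbd11 at 0.26 to 0.32. Uncx, for example, read 8.65 in the bulb against 11 in the cerebellum, 10.86 in the pontine nucleus and 9.97 in the colliculus. For Ebf2 they were Tfap2a, an AP-2 transcription factor gene, at 0.39, the paired box gene Pax3 at 0.40, Dhrs3, which encodes a retinaldehyde reductase, at 0.45, the nuclear receptor gene Rora at 0.48 and the cadherin gene Cdh9 at 0.48. The closest gene to Ebf2 lay farther from it than the closest gene of each other member did. Rora, which Purkinje cells require, read 11.18 in the cerebellum against 10.36 in the colliculus, 9.41 in the bulb and 8.47 in the pontine nucleus.

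Ebf3 was matched by Lncenc1, a long noncoding RNA gene, at 0.18, the serotonin receptor gene Htr1b at 0.21, Pdlim3 at 0.30, Mab21l1 at 0.33 and the orphan nuclear receptor gene Esrrb at 0.34. The closest candidates to Zfp423 were Klf10 at 0.076 and the leukaemia inhibitory factor receptor gene Lifr at 0.14. The potassium channel gene Kcnj6, Glipr2 and Pdzrn3 followed, all at 0.14. Zfp423 itself spanned 0.89, less than the range asked of candidates, so genes as flat as Zfp423 could not be returned. Zfp521 was matched by Ret, the receptor gene for glial cell line-derived factors, at 0.049, the kinase gene Nuak1 at 0.094, the Wnt antagonist gene Dkk2 at 0.11, and Stxbp5l and Frmpd4, both at 0.12. Ret read 10.46 in the pontine nucleus, while its cerebellar level was 9.44, with 9.17 in the colliculus and 8.84 in the bulb. Ranked by Pearson's r, only part of these names came back: 3 for Ebf1, 1 each for Ebf2, Zfp423 and Zfp521, and 0 for Ebf3.

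**Figure D4:**
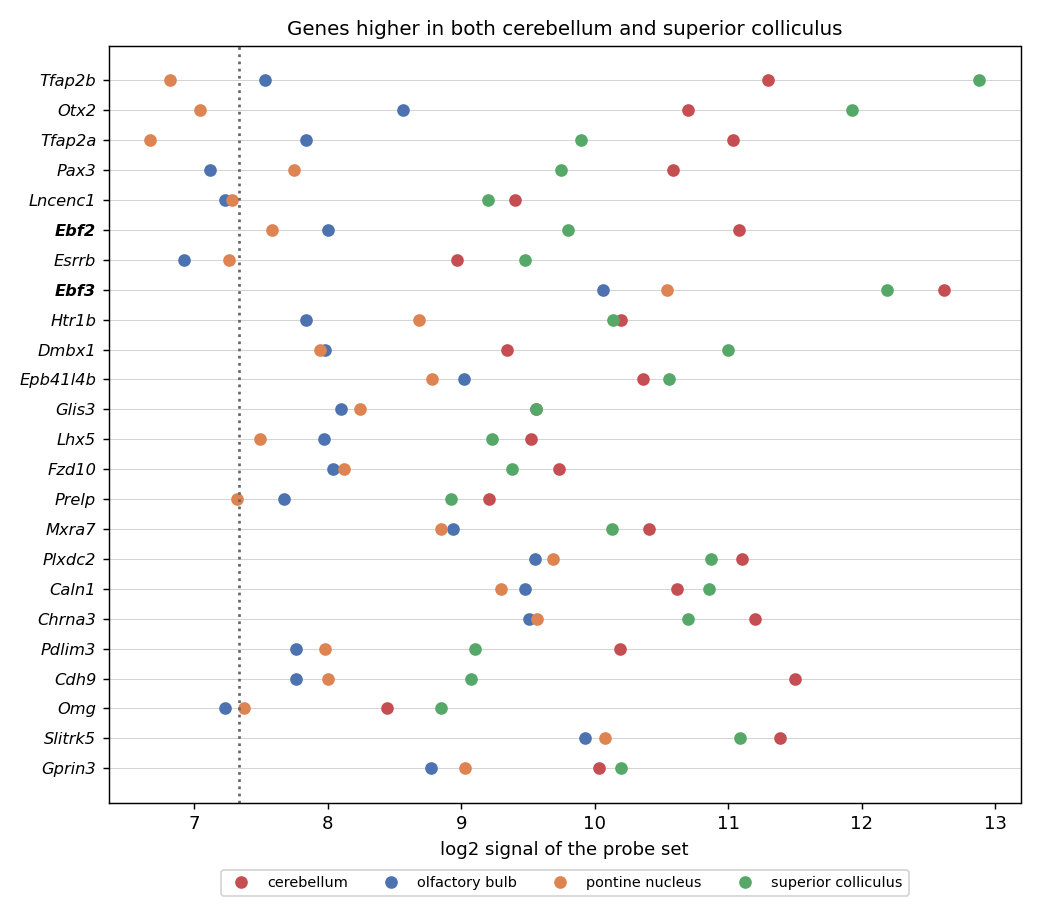
Log2 signal (horizontal axis) on the 4 arrays of 24 genes, ordered from the widest gap at the top. In these genes the cerebellum and colliculus levels both lay at least 1 log2 unit above those of the bulb and the pontine nucleus. Under the dotted line at 7.33 lie 95% of the readings of the background genes. Ebf2 and Ebf3 (bold names) come sixth and eighth, with gaps of 1.80 and 1.65, and the 2 upper points of Glis3 coincide at 9.56.

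The pattern of Ebf2 and Ebf3, bright in the cerebellum and colliculus and dim in the bulb and pontine nucleus, was shared by 24 of the compared genes, or 0.22%. This comparison was made after the levels had been seen. Several other transcription factor genes were in the group. Tfap2b read 11.30 in the cerebellum and 12.88 in the colliculus, against 7.53 in the bulb and 6.82 in the pontine nucleus, for a gap of 3.77. Otx2, which specifies the midbrain and forebrain, had a gap of 2.14, Tfap2a one of 2.06, Pax3 one of 2.0 and the LIM homeobox gene Lhx5 one of 1.26. The Wnt receptor gene Fzd10 and the nicotinic receptor gene Chrna3 had gaps of 1.26 and 1.13.

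The lists of genes around these factors were set beside them, and the marker lists come first. They were chosen with earlier results of these data known, so they are no independent check of the dissections. In the pontine nucleus 6 of 12 pontine neuron genes were higher, among them Hoxa2, in the colliculus 7 of 10 tectal genes, in the bulb 5 of 5 mitral and tufted cell genes and 5 of 6 interneuron genes, and in the cerebellum 5 of 11 Purkinje cell genes and 3 of 12 granule lineage genes. In the bulb the projection neuron genes Tbr1, Slc17a7 and Cdhr1 rose by 4.24, 3.71 and 3.27, and the interneuron genes Dlx1, Dlx5 and Dlx2 by 5.05, 3.72 and 3.51. Of all compared genes, 0.798% were higher in the pontine nucleus, 0.715% in the colliculus, 0.972% in the bulb and 0.605% in the cerebellum. Over all compared genes the median difference, each region minus the average of the other 3, was between -0.06 and 0.03 in each region.

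Purkinje cell genes, like Ebf2 and Ebf3, were bright in the cerebellum. All 11 measured ones exceeded there the average of the other regions, by 1.77 at the median, and the mean level of the list was 11.08 in the cerebellum, against 9.93 in the colliculus, 9.25 in the bulb and 9.02 in the pontine nucleus. That is the order of the Ebf2 levels. Car8, Calb1 and Skor2, which mark Purkinje cells, were higher in the cerebellum by 3.02, 2.17 and 1.97. Foxp2, a forkhead gene of the same list, fell by 2.97 in the pontine nucleus, where it read 7.77, against 12.09 in the cerebellum, 11.61 in the colliculus and 10.74 in the bulb. The part of Purkinje cell number in the Ebf2 and Ebf3 levels was not tested.

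Granule cell lineage genes, from the rhombic lip that also gives rise to pontine neurons, had a median of 0.94 in both cerebellum and pontine nucleus, compared with -0.61 in the bulb and -1.03 in the colliculus. Ebf1 and Zfp423 also had their 2 highest readings in the cerebellum and the pontine nucleus, but in the colliculus they differed by -0.01 and -0.19 from the average of the others. The members of that list went different ways. Atoh1, which founds the lineage, was higher in the cerebellum by 3.0, as were Mfap4 by 2.0 and Tlx3 by 1.67. Barhl1 fell by 2.79 and Zic2 fell by 1.49 in the bulb, Neurod1 fell by 2.33 in the pontine nucleus, and in the colliculus Pax6 fell by 1.47 and Nhlh1 fell by 1.45. Pontine neuron genes had a median of 1.18 in the pontine nucleus, where Zfp521 was highest. Barhl1, Pax6, Zic1 and Unc5c are in both this list and the granule lineage list. Hoxa2, Hoxb3 and Hoxa5, which pattern the hindbrain, rose in the pontine nucleus by 4.70, 3.74 and 2.8, and Barhl1 by 1.25. Of the 12 pontine neuron genes, 10 exceeded there the average of the other regions. Etv1, higher in the bulb by 1.65, and Dcc, lowest in the pontine nucleus at 11.01, did not. Whether Zfp521 came from pontine neurons was not tested.

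Further neuron classes were read beside the Ebf genes. Cajal-Retzius cells, early cortical neurons that make reelin, had 5 measured genes above the floor with medians of 1.29 in the cerebellum, 1.09 in the bulb, 0.27 in the colliculus and -1.42 in the pontine nucleus. Over all 6 measured genes, with Trp73 (7.64 to 8.26, below the floor), the bulb came first with 0.83, before the cerebellum with 0.63, the colliculus with 0.01 and the pontine nucleus with -0.91. Lhx1 and Lhx5 are also in the Purkinje list, and Lhx1 rose by 1.08 in the cerebellum and fell by 1.99 in the bulb. Of 9 midbrain dopamine neuron genes, 4 exceeded the floor and none passed the rule in the colliculus (Th was higher in the bulb and En1 in the cerebellum). Nr4a2 came just short of it there, at 10.59 against 8.82 to 9.62 elsewhere, a gap of 0.97. Slc6a3, Pitx3 and Foxa2 read at most 8.43 on any array. Tectal genes had a median of 3.09 in the colliculus, led by Pou4f1, Tfap2d and Gata3 (higher by 3.08, 2.86 and 2.74), and Pax3, another of them, read 9.75 there and 10.59 in the cerebellum. Cell division genes had a median of 1.40 in the cerebellum and 0.69 in the bulb, but -0.82 (pontine nucleus) and -1.16 (colliculus), with Mki67 at 11.50, 10.93, 9.50 and 9.27 and Top2a at 10.83, 10.31, 8.76 and 8.50 in that order. In the bulb, where that median was positive, Ebf1, Ebf2 and Ebf3 differed by -1.49 to -2.02. The part of dividing cells in the Ebf levels was not tested.

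**Figure D5:**
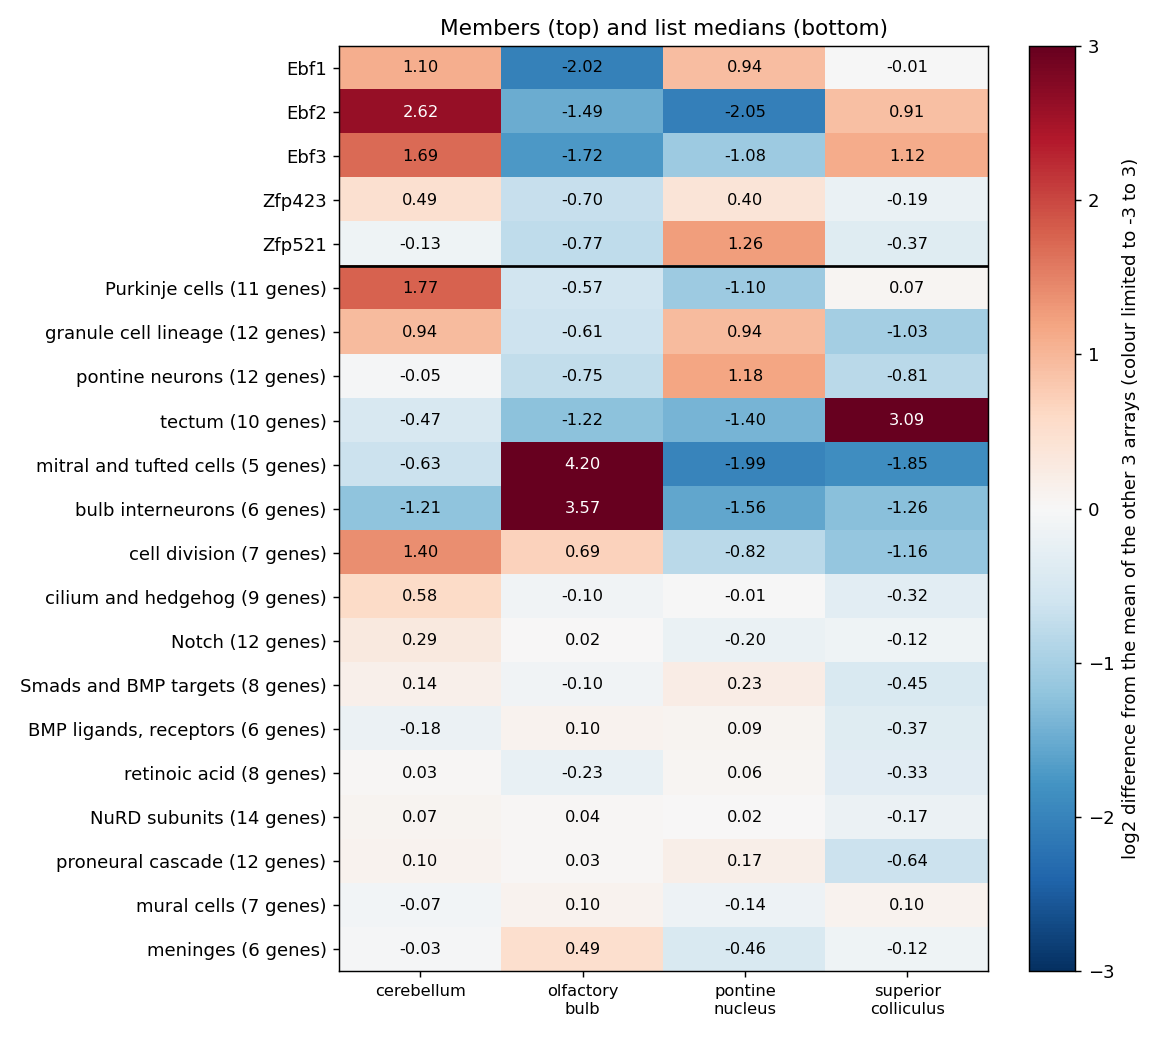
Log2 difference of each region from the mean of the other 3 arrays, for the 5 genes (rows above the line) and as the median over the genes above the level floor of each list (rows below the line, number of genes in brackets); blue is negative, red positive, and colours stop at -3 and 3. The cerebellar values of the Ebf genes are 1.10 to 2.62. Those of Purkinje cell, cell division and granule cell lineage genes are 1.77, 1.40 and 0.94. The pontine value of Zfp521, 1.26, stands beside 1.18 for pontine neuron genes and 0.94 for granule cell lineage genes.

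NuRD and Smad proteins are partners of Zfp521 and Zfp423. None of 14 NuRD subunit genes passed the rule in any region, and the list medians were between -0.17 and 0.07. Of all compared genes, 0.156% to 0.981% passed in a given region and direction, so a list this short can easily hold none. The same shares stand beside the counts of the lists that follow. Chd5, a neuronal helicase of the complex, differed most, at 11.09 in the colliculus against 10.06 to 10.46 elsewhere, and the deacetylase gene Hdac1 read 10.08 to 10.83. Among 8 Smad and BMP-responsive genes above the floor none passed either, with medians of 0.23 (pontine nucleus), 0.14 (cerebellum), -0.10 (bulb) and -0.45 (colliculus). Smad1, Smad4 and Smad5, which carry the BMP signal, had ranges under 1 log2 unit, and Smad4, for example, read 11.17 to 11.82. Id4 read 11.57 in the colliculus and 9.64 in the pontine nucleus, with 10.63 and 10.47 in the cerebellum and the bulb, and Id2 read 12.36 to 13.82. Of 6 BMP ligand and receptor genes, the ligand genes Bmp5 and Bmp7 were higher in the bulb, by 1.79 and 1.43, where Zfp423 had its lowest reading.

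Zfp423 is also needed for responses to retinoic acid and, in granule cell precursors of the mouse, to sonic hedgehog through the primary cilium. Of 8 retinoic acid genes above the floor, 1 was higher in the pontine nucleus and lower in the cerebellum, the binding protein gene Crabp1, at 13.36 in the pontine nucleus and 9.81 in the cerebellum, against 10.91 in the bulb and 10.87 in the colliculus. The degrading enzyme gene Cyp26b1 had a cerebellar level of 10.88 and a pontine one of 9.98, against 8.14 in the colliculus and 7.79 in the bulb, which is the order of the Ebf1 and Zfp423 levels. Cilium and hedgehog genes had a median of 0.58 in the cerebellum over 9 genes, with 0 of them past the rule there, and the transcription factor gene Gli3 fell by 1.82 in the pontine nucleus. Tulp3 and Ift88, which act in cilium traffic, read 9.29 to 9.68 and 9.04 to 9.50 over the 4 arrays. In the Notch pathway 1 of 12 genes passed, Hey2 in the bulb, by 1.5.

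Proneural and early neuronal genes act before and with Ebf factors in newborn neurons. Of 12, none was higher in any region, Neurod1 fell by 2.33 in the pontine nucleus and Nhlh1 fell by 1.45 in the colliculus. Neurod1 read 6.85 in the pontine nucleus, against 9.18 to 12.30 elsewhere. The list medians were 0.175 (pontine nucleus), 0.1 (cerebellum), 0.03 (bulb) and -0.64 (colliculus). Neurog1 and Neurog2 were highest in the bulb, at 9.27 and 9.94, and lowest in the pontine nucleus, at 7.82 and 7.91. Neurod4 was highest in the cerebellum, at 9.16, and lowest in the pontine nucleus, at 6.38. The general neuronal genes Dcx, Stmn2 and Elavl3 had ranges of under 1 log2 unit, Dcx reading 12.87 to 13.26.

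Genes that Ebf proteins are known to serve in other tissues were mostly dim. Of 12 olfactory sensory neuron genes, several with Ebf sites in their promoters, 3 exceeded the floor and none passed the rule in any region. Omp read 7.90 to 8.28, Cnga2 6.35 to 6.43 and Gnal 10.55 to 11.73, the last with its highest reading in the colliculus, and Adcy3 9.18 to 9.70. None of 7 measured B cell genes exceeded the floor, with Cd79a at 6.42 to 6.72 and Pax5 at 7.42 to 8.32. Of 8 adipocyte lineage genes 1 exceeded it, Prdm16, which was higher in the bulb by 1.09, while Adipoq read 5.92 to 5.96 and Fabp4 5.91 to 6.01.

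Markers of vessel and meningeal cells were measured alongside. None of 7 mural cell genes above the floor passed the rule, their medians were between -0.14 and 0.10, and the mean level of the 10 measured genes was 8.92 (bulb), 8.81 (colliculus), 8.70 (cerebellum) and 8.66 (pontine nucleus). Pdgfrb, the receptor gene that marks pericytes, read 9.07 to 9.76, Notch3 8.64 to 9.56 and Vtn 9.60 to 11.19, highest in the bulb. Of 6 endothelial genes above the floor none passed, with Cldn5 at 10.46 to 10.64, Emcn at 8.32 to 8.92 and Flt1 at 8.90 to 9.32. Meningeal genes had a median of 0.49 in the bulb, with Dcn higher there by 1.94 at 10.59, whereas Ebf1 was lower in the bulb. The highest mean levels of the mural and meningeal lists were in the bulb, the region with the lowest Ebf1 reading. For the mural list this held by the mean only, since its median was 0.10 in both the bulb and the colliculus. The part of these cells in the Ebf1 levels was not tested.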

How the data were processed

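Per the labels, total RNA was converted to sense-strand cDNA, biotin-labelled and hybridised to Affymetrix arrays, 1 array of pooled tissue per region. The submitters' processing notes name Affymetrix Expression Console, with no version or algorithm. The deposited table gives 1 log2 value per probe set (35556) and array. The log2 scale was inferred from the values (2.43 to 14.57), and array medians of 8.07 to 8.13 were taken to mean that arrays had been scaled to each other, which can remove general differences between regions.

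Symbols came from the platform annotation of 2016, in which 21789 probe sets had 1 symbol, 1621 several and 12146 no entry; 21698 matched RefSeq (GRCm38.p6) by Entrez ID. The brightest probe set represented each gene with several. Probe sequences were not used here, so cross-hybridisation between Ebf paralogs was not examined. List genes without a singly named probe set are unnamed here. The size rule (1 log2 unit) stands in for a test. With 1 array per region, 4 arrays limit the precision and no error can be given. Named genes were the 5 members, the 5 genes closest to each, and from each of 23 lists up to 3 genes past the rule by gap (up to 2 with the largest difference where none passed). Other list genes are given where their list is described. Members and lists were chosen with earlier results of these data known. Python 3.11.15, NumPy 2.4.6, pandas 2.3.3 and Matplotlib 3.10.9 were used.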

Additional observations from a re-analysis of the deposited data

How the results depend on the processing

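Alternatives were quantile normalization, averaging the probe sets of a gene, dropping the level floor, raising it to 10.03 (the 75th percentile), a rule of 2 log2 units and, except for pairs, the mean of the other 3 arrays as comparator. No gap of the 5 genes changed sign under quantile normalization. The other settings could not turn a sign. Each gene had 1 probe set, and neither the floor nor the size rule enters a gap. A highest region always lies above the mean of the others, and a lowest one below it. Quantile normalization put Zfp521 in the pontine nucleus at 0.975, under the rule, which left 0 of the 5 genes higher there and 0 higher in the pontine nucleus than in the cerebellum. With 2 log2 units the gaps of Ebf1 in the olfactory bulb (-1.51), Ebf2 in the cerebellum (1.28) and Zfp521 in the pontine nucleus (1.04) no longer passed and their regions counted 0 genes. That rule also left 0 genes for cerebellum over superior colliculus and for pontine nucleus over cerebellum or over superior colliculus, and 1 gene each for pontine nucleus over bulb, superior colliculus over bulb and superior colliculus over pontine nucleus. Against the mean of the other arrays the gaps of Ebf1 (1.10) and Ebf3 (1.69) in the cerebellum, Ebf2 in the pontine nucleus (-2.05) and Ebf3 in the bulb (-1.72) passed, and 3 genes were higher in the cerebellum, 1 in the superior colliculus, 3 lower in the bulb and 2 in the pontine nucleus. For quantile normalization the cause was not tested; the other shifts follow from the changed threshold or comparator. The adipocyte list, at 1.28 in the bulb over 1 gene, was -0.0017 over all 8 without the floor, where more genes entered. Of all list medians under the alternatives, 484 moved by less than the background spread or not at all. The rule of 2 log2 units and the comparator do not enter a list median, so their part of the 484 was fixed in advance. Another 39 moved by more, among them the Cajal-Retzius medians without the floor. A further 1, the adipocyte median just given, was reversed in sign.

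Over all compared genes, in the order cerebellum, bulb, pontine nucleus and superior colliculus, 66, 106, 87 and 78 were higher and 17, 47, 107 and 18 lower. With 2 log2 units 12, 37, 21 and 15 were higher and 0, 5, 13 and 1 lower, and against the mean of the others 264, 255, 180 and 241 were higher and 100, 168, 395 and 179 lower. With the higher floor 41, 65, 60 and 49 were higher. No paired analysis was possible because each region had 1 array. Signals near background, as for Ebf2 in the bulb and the pontine nucleus, limit how far a low level can be read.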
